A study of Mus musculus with 8 samples.

Results

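Ribosomal protein genes encode the proteins of the cytoplasmic ribosome. Their promoters were chosen by gene symbol: protein-coding genes of the GENCODE vM1 annotation of the mouse genome build mm9 named Rpl or Rps with a number and an optional letter, x or l after it, together with Rplp0, Rplp1, Rplp2 and Rpsa. Kinases of the Rps6k family and pseudogenes were left out. The rule gave 81 of 22380 protein-coding genes, with 49 genes of the large subunit and 32 of the small subunit on 19 chromosomes. The rule uses symbols and no measured value.

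The study separated stromal cells of mouse bone marrow into 7 sorted populations and compared their open chromatin by ATAC-seq, a method that marks accessible DNA by inserting adapters with the transposase Tn5. The extract protocol in the labels describes RNA, and the study's methods describe ATAC-seq. All libraries, titled ATAC1 to ATAC7, and the Input control came from wild type C57BL/6J mice at 6 weeks after birth, and no other genotype or treatment was used. The labels do not tie a title to a sorted population, so libraries are named by title throughout. Each title had 1 library, so no difference below has a replicate error or a test, and how many mice were pooled is not given in the sources used here.

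A ribosome has a small subunit, which reads the messenger RNA, and a large subunit, which joins amino acids. The genes for its proteins are active in practically every cell type, and their promoters are commonly free of a stable nucleosome at the start site. Many of their messenger RNAs begin with a run of pyrimidines, the 5′ terminal oligopyrimidine (TOP) motif, through which growth signals control their translation.

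The sequences at the start sites show what these promoters have in common and where they differ. The 9 printed here, read from the mm9 genome, run from 120 bases before to 29 after a representative annotated start, which is the coding start with the most other coding starts of the gene within 100 bases. Capitals mark matches on either strand to CCGGAAG (ETS factors), GCCATNTT (YY1), GGGCGG (SP1), GCATGCGC (NRF1), CCAAT (NF-Y), CTCGCGAG (ZBTB33), TATAAA (TBP) or TGACGTCA (CREB). They also mark pyrimidine runs of at least 8 bases that begin with C from 50 bases before the start onward, and adjoining matches form 1 stretch. Each match is a description of letters, and no match says only that these letters are not in the window. Annotated starts may lie some bases from the starts that cells use. Of the first 5, Rpl10 and Rps26 had the highest fold over Input (library reads against those of the Input control), Rpl10a and Rpl26 were among the lowest, and Rpsa had the narrowest range of centred fold over the libraries. They lie at chrX:71516031-71516180 (plus strand), chr10:128063533-128063682 (minus strand), chr17:28465296-28465445 (plus strand), chr11:68714965-68715114 (plus strand) and chr9:120036764-120036913 (plus strand).
Rpl10: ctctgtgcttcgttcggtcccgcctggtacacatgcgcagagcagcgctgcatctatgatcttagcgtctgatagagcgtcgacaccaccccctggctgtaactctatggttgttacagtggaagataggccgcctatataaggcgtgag
Rps26: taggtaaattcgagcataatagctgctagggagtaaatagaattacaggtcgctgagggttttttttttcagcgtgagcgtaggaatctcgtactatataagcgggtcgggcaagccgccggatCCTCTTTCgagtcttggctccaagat
Rpl10a: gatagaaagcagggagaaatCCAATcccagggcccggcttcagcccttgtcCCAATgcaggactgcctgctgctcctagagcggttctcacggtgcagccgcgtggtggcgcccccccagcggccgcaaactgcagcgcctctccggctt
Rpl26: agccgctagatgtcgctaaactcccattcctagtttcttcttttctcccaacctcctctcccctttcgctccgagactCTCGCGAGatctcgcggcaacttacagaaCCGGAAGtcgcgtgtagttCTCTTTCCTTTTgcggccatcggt
Rpsa: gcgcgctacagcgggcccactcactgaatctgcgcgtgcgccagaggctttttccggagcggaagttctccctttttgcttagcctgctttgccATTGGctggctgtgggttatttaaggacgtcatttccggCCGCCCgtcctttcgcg

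The other 4 show a TOP-like run at the start (Rpl13a), ETS and ZBTB33 matches together (Rps6), the promoter that lacked a peak in ATAC1 (Rps29) and one with no peak in any library (Rpl3l). They lie at chr7:52384089-52384238 (minus strand), chr4:86503287-86503436 (minus strand), chr12:70260144-70260293 (minus strand) and chr17:24864654-24864803 (plus strand).
Rpl13a: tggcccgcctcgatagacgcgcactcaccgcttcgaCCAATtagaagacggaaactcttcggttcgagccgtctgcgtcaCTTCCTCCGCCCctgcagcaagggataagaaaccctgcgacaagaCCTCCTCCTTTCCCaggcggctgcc
Rps6: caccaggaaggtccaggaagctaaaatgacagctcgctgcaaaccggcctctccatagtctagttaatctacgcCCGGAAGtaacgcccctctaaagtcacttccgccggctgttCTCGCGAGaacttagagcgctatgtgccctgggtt
Rps29: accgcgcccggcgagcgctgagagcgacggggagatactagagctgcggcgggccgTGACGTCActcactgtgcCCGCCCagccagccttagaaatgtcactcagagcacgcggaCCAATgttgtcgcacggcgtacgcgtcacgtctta
Rpl3l: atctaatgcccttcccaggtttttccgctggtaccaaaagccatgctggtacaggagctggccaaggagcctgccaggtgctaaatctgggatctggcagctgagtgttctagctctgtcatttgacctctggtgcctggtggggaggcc

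Pyrimidine runs at the start were found in more of these promoters than in promoters at large. In the 100 bases around the start, 50 of 81 ribosomal protein genes (61.7%) held a run of at least 8 pyrimidines beginning with C, against 29.1% of 22367 protein-coding genes whose window was complete. The longest pyrimidine run had a median of 9 bases against 6 in all genes. A C stood at the representative start itself in 18 members (22.2%) and in 15.4% of all genes. Rpl26, whose protein binds at the exit of the peptide tunnel, and Rpl13a, a large subunit protein, both carry such a run within 10 bases after their annotated start in the sequences shown.

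Matches to transcription factor motifs were counted in 300 bases, from 250 before to 49 after the start. The ETS letters CCGGAAG occurred at 27 members (33.3%), against 11.0% of all genes and 21.1% of the 8161 other genes with a peak in every library. The palindrome CTCGCGAG occurred at 8 members (9.88%), against 1.198% and 2.41% in the same 2 sets. GCCATNTT was found at 11 members (13.6%, all genes 6.77%, the other open promoters 9.70%) and TGACGTCA at 6 (7.41%, all genes 2.36%, the other open promoters 3.96%). The shares of the remaining 4 motifs were not above those of both sets. GGGCGG was present at 43 members (53.1%), between the 44.5% of all genes and the 70.8% of other genes with a peak in every library. CCAAT was present at 26 (32.1%, all genes 37.9%, the other open promoters 41.2%), TATAAA at 9 (11.1%, all genes 13.4%, other genes with a peak in every library 5.67%) and GCATGCGC at 3 (3.70%, all genes 3.39%, the other open promoters 6.48%).

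The promoters were rich in CpG without being very rich in G and C. The median observed over expected CpG was 0.856 against 0.549 in all genes and 0.819 in the other open promoters. The median GC content of 56.3% was near the 55.7% of all genes and below the 62.3% of the other open promoters. For the 72 members with a peak in every library the medians were 0.865 for CpG and 56.3% for GC content. Within the 72 members that had a peak in every library, the fold over Input showed little relation to either feature: Spearman's rho across these genes, which are not independent replicates, was 0.04 for GC content and -0.0041 for CpG. With library reads per 1000 bases in place of the fold it was 0.31 for GC content and -0.03 for CpG.

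A gene was taken to have a start-site peak when the centre of a called peak lay within 1000 bases of any of its annotated starts. By this rule 72 of 81 ribosomal protein genes (88.9%) had a peak in every library, against 36.8% of all protein-coding genes. ATAC5 and ATAC6 each held 78 of the 81 (96.3%), where 52.7% and 51.5% of all genes had a peak. ATAC1, ATAC3 and ATAC4 each held 77 (95.1%), where the background was 49.0%, 43.5% and 43.6%. ATAC2 held 76 (93.8%) against 50.2%, and ATAC7 held 74 (91.4%) against 42.0%. The lists differed in length from 15188 peaks in ATAC7 to 32280 in ATAC2, and the member count moved between 74 and 78. The matrix of fold over Input for each gene and library shows the few gaps.

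**Figure D1:**
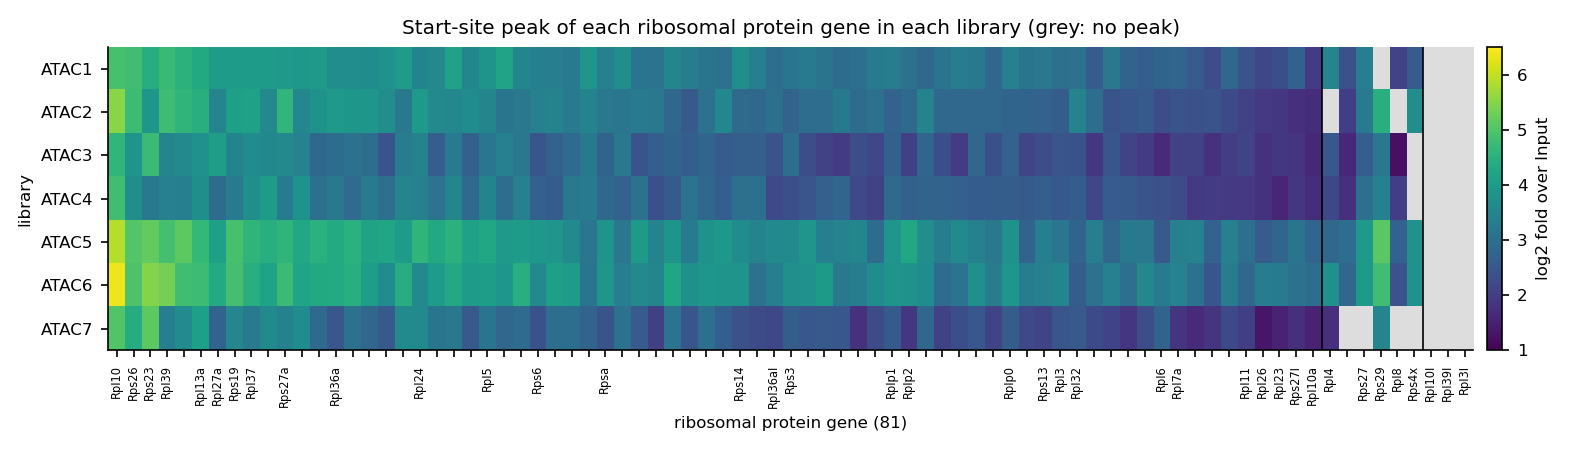
Log2 fold over Input of the best-ranked start-site peak of each of the 81 ribosomal protein genes (columns) in each library (rows), with grey where no peak was called. The first block holds the 72 genes with a peak in all 7 libraries, ordered by median fold from Rpl10 (5.01) to Rpl10a (1.72), then come the 6 genes with gaps and the 3 without any peak. Names are given for genes described in the text.

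With all lists shortened to their 15188 best-ranked peaks, 66 members (81.5%) still had a peak in every library, against 34.3% of all genes. With a minimum fold of 5 required of each peak, 49 members (60.5%) had one in every library, against 22.1%. A peak in some libraries and not in others was found for 6 of the 81 members and for 19.8% of all protein-coding genes, and no peak in any library for 3 members and 43.4% of all genes.

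The 3 genes without a peak in any library are the paralogs Rpl10l, Rpl39l and Rpl3l. Rpl10l and Rpl39l are known for expression in the testis, and Rpl3l for expression in muscle. The nearest peak to a start of Rpl10l lay between 938143 and 1111651 bases away over the 7 libraries. For Rpl39l it lay between 22648 and 241863 bases away. Rpl3l lies 5900 bases from the gene Rps2, which encodes a small subunit protein, and its nearest peak was 3383 to 3903 bases away. The widely expressed counterparts Rpl10 and Rpl39, both on the X chromosome, and Rpl3 had a peak in every library. Of the other 78 members, 72 had a peak in all libraries and 6 in some of them.

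Rps29, a zinc-binding protein of the small subunit, had the highest counts among the members with a gap. Its gene lies at chr12:70258709-70260173 on the minus strand. No peak was called there in ATAC1, where the nearest one was 9339 bases away. Its peak held 1181 reads in ATAC2, 635 in ATAC3, 731 in ATAC4, 1697 in ATAC5, 1584 in ATAC6 and 844 in ATAC7. The peaks ranked between 326 in the list of ATAC5 and 978 in that of ATAC6, and the exact 95% Poisson interval of the lowest count ran from 586.6 to 686.4 reads. The neighbouring Rpl36al, at 23545 bases, had 877 reads in ATAC1. Genes with a peak in all libraries but ATAC1 numbered 45 in the whole annotation, and 3 of them stood in the best 10% of the other 6 lists. The tables list called regions only, so the reads of ATAC1 at Rps29 are unknown, and why the call is missing was not tested.

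Rps4x, an X-linked small subunit gene whose human counterpart escapes X inactivation, was called in 4 libraries. It had 79 reads in ATAC1, 131 in ATAC2, 131 in ATAC5 and 139 in ATAC6, each against 16 Input reads. The exact Poisson interval of the ATAC1 count was 62.5 to 98.5 reads, and since library depths are unknown the counts are not compared between libraries. The 3 libraries without a call were ATAC3, ATAC4 and ATAC7, which have the shortest lists, and the part of list length in this was not tested.

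Rpl8, a protein of the peptidyl transferase region, had 96 reads in ATAC1, 94 in ATAC3, 149 in ATAC4, 108 in ATAC5 and 94 in ATAC6. It had no peak in ATAC2 or ATAC7, the longest and the shortest list. Rpl4, which lines the peptide tunnel, lacked a peak in ATAC2 only. Its counts in the other libraries lay between 80 reads in ATAC5 and 190 in ATAC6, and its start lies 283 bases from that of the divergent gene Zwilch. Rps27, of the small subunit, lacked a peak in ATAC7 only, and had 162 reads in ATAC2 to 275 in ATAC6. Where they were called, Rps4x, Rpl8, Rpl4 and Rps27 held between 79 and 275 reads, all below the 635 that was the lowest count of Rps29.

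Strength was described by the authors' fold over Input of the best-ranked start-site peak, on the log2 scale. Each value is the library's scale factor times its reads in the outer region, divided by the Input reads there plus 0.01. Over the 72 members with a peak in every library, the median was 3.76 in both ATAC5 and ATAC6. It was 3.32 in ATAC1 and 3.15 in ATAC2, and lower in ATAC4 (2.75), ATAC3 (2.67) and ATAC7 (2.54). The span between the highest and the lowest library was 1.22. The 8166 other protein-coding genes with a peak in every library had medians of 3.87 and 3.82 in ATAC5 and ATAC6. Theirs were 3.27 and 3.26 in ATAC1 and ATAC2, and 2.72, 2.62 and 2.59 in ATAC4, ATAC3 and ATAC7, so libraries high for one set were high for the other.

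**Figure D2:**
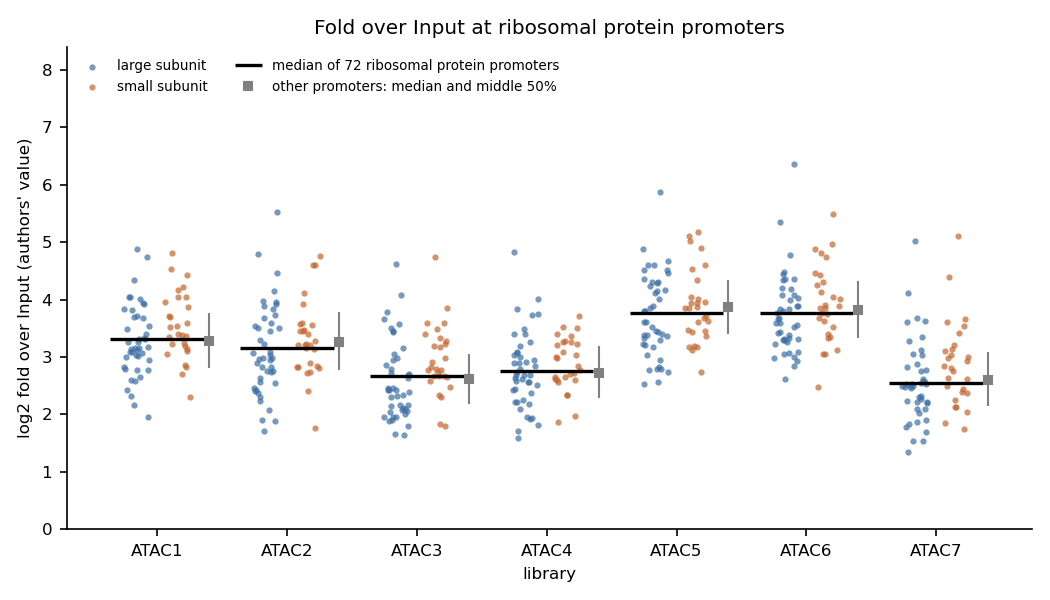
Log2 fold over Input of the 72 ribosomal protein promoters with a peak in every library, with 1 point per promoter (44 of the large and 28 of the small subunit). Black lines are the members' medians, and grey squares with bars give the median and the middle 50% of 8166 other promoters. The members' median lies inside the grey bar in all 7 libraries, and both levels shift together from 2.54 and 2.59 in ATAC7 to 3.76 and 3.87 in ATAC5.

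Members and other promoters thus differed little within a library. The median of the members minus that of the others was above 0 in ATAC1 (0.04), ATAC3 (0.05) and ATAC4 (0.03). It was below 0 in ATAC2 (-0.10), ATAC5 (-0.12), ATAC6 (-0.06) and ATAC7 (-0.05). These differences span 0.17, while the library medians span 1.22. The signs of the differences changed in some other settings, where values ran from -0.21 to 0.21. The exact binomial 95% interval of the members' median held the others' median in every library, for example 3.15 to 3.52 in ATAC1 and 3.46 to 3.94 in ATAC5, where genes and not replicates set the width.

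Library reads per 1000 bases of the outer region are not scaled for depth, so they serve to compare promoters within a library and give no order of libraries. The scale factors in the authors' fold ran from 1.01 in ATAC3 to 1.71 in ATAC5. The median over the members was 647, 450.4, 541, 528, 547, 640.2 and 464 reads per 1000 bases in ATAC1 to ATAC7 in turn, and that of the other promoters lay between 477 in ATAC7 and 656 in ATAC6. The outer regions of the members had a median width of 455 bases in ATAC7 to 949 in ATAC5. The best peak of a single member held between 50 and 2299 reads, with a median of 343. In 6 of the libraries the best-ranked member was Rps23 at rank 168 in ATAC1 and 92 in ATAC5, Rps19 at 108 in ATAC3 and 301 in ATAC6, Rpl37 at 441 in ATAC4 and Rpl13a at 617 in ATAC7.

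The ribosomal protein promoters were not the strongest of each list. The median member stood between 13.7% of the list from the top in ATAC6 and 31.9% in ATAC7. The median other promoter stood at 13.6% and 28.2% there. Between 9 members in ATAC7 (12.5%) and 26 in ATAC5 (36.1%) reached the best 10% of their list. The share of other promoters that did so was 18.9% and 40.3% in these libraries. The member share was above that of the others in ATAC1 only, at 33.3% against 31.2%.

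Among the members, the large ribosomal protein Rpl10 had the highest median fold over the libraries. Its log2 fold was 4.89, 5.53, 4.62, 4.82, 5.88, 6.36 and 5.01 in ATAC1 to ATAC7 in turn. Rps23 was above it in ATAC3 and ATAC7. By the median it was followed by Rps26 with a median of 4.77 over the libraries, Rps23 with 4.74 and Rpl39 with 4.74, of which Rps23 lies at the decoding centre. The lowest median was that of Rpl10a, with 1.95, 1.71, 1.64, 1.72, 2.79, 2.98 and 1.53 in ATAC1 to ATAC7 in turn. It was the lowest member in ATAC1, ATAC2 and ATAC3, and its highest value stayed below the lowest of Rpl10. The other members of low median were Rps27l at 1.87, Rpl23 at 1.89, Rpl26 at 1.91 and Rpl11 at 2.14.

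The top and the bottom of this order differed in Input reads more than in library reads. Rpl10 and Rpl10a had nearly equal library reads, with medians of 505 and 509 reads per 1000 bases over the libraries. Their Input reads were 16.7 and 165 per 1000 bases. In the 5 members of highest fold the median Input lay between 16.7 and 58.8 reads per 1000 bases, and in the 5 lowest between 105 and 165, without overlap. Their library reads lay between 505 and 903 in the former and between 392 and 509 in the latter, with overlap. Both groups were picked by a fold that has Input as its divisor, so their separation in Input is in part built in. Across the 72 members Spearman's rho of the median log2 fold was -0.72 with Input reads and 0.58 with library reads per 1000 bases, values that share their reads by construction.

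**Figure D3:**
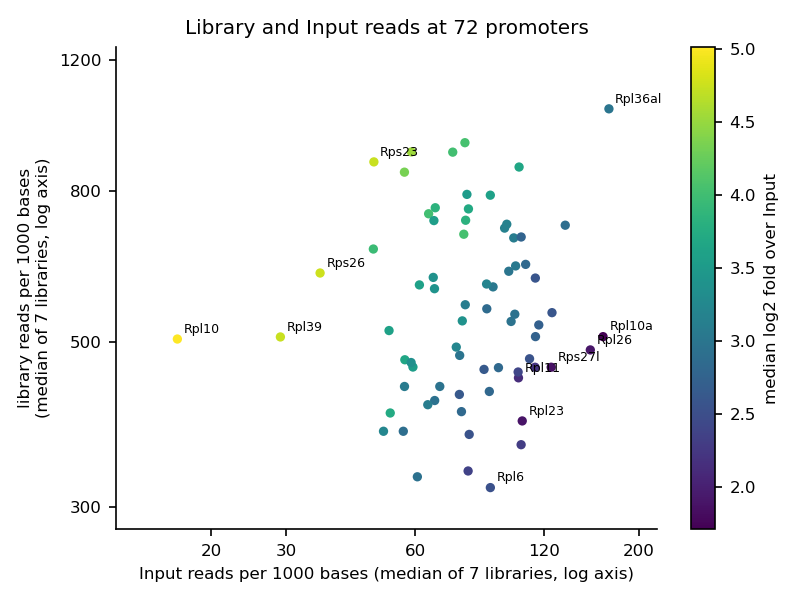
Library reads against Input reads per 1000 bases of the outer region for 72 ribosomal protein promoters, each the median of 7 libraries on a log axis and coloured by median log2 fold over Input. Rpl10 and Rpl10a sit at the same height (505 and 509 library reads) and far apart along the Input axis (16.7 and 165 Input reads), and Rpl36al is highest with 1032 library reads.

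By library reads per 1000 bases, Rpl36al led with a median of 1032, followed by Rps19 with 929. Rps19 is the small subunit protein most often mutated in Diamond-Blackfan anaemia. Rpl36al had the highest Input of the members, at 170.0 reads per 1000 bases, and its log2 fold of 2.996 was near the middle. The lowest of the 72 by this measure was Rpl6, with 318 reads.

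Chromosome X held some of the members of highest fold. Rpl10, Rpl39 and Rpl36a were the X-linked members among the 72, with median folds of 5.01, 4.74 and 3.72. The 212 other X-linked promoters with a peak in every library held a median of 33.8 to 39.2 Input reads per 1000 bases, depending on the library, while other autosomal promoters held 76.2 to 90.6. Their log2 fold was higher in each library, for example 4.17 against 3.26 in ATAC1 and 4.77 against 3.86 in ATAC5. With autosomal genes only, members minus others ranged from -0.17 to 0.06.

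Small subunit promoters had a higher median fold than large subunit promoters in all 7 libraries. The medians for 28 small and 44 large subunit genes were 3.46 and 3.16 in ATAC1, 3.22 and 2.98 in ATAC2, 2.81 and 2.42 in ATAC3, 2.90 and 2.68 in ATAC4, 3.85 and 3.60 in ATAC5, 3.87 and 3.63 in ATAC6, and 2.83 and 2.49 in ATAC7. The difference lay between 0.22 and 0.39 on the log2 scale, and between 0.22 and 0.42 with autosomal genes only. The same genes and the same Input enter every library, so the 7 values are not independent of each other. For library reads per 1000 bases the difference was smaller, from -0.01 in ATAC7 to 0.28 in ATAC3. The points of both subunits overlap widely in the plot of fold by library.

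To see which promoters left the common level, each library was centred on its median over the 72 members. The range of a member over the 7 centred libraries had a median of 0.67 on the log2 scale, against 0.63 for the other promoters. A range above 1 was found in 10 of the 72 members (13.9%) and in 14.5% of the others. The SD over libraries of centred log2 reads per 1000 bases had a median of 0.25 in the members and 0.22 in the other promoters. Poisson counting of the reads alone would give the members a median of 0.083, and separate libraries also differ in preparation. Without a second library per title, variation between preparations and between the sorted populations cannot be told apart.

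The ranks of the members were nonetheless alike between libraries. Spearman's rho of reads per 1000 bases across the 72 genes lay between 0.56 for ATAC2 with ATAC3 and 0.77 for ATAC4 with ATAC7 over the 21 pairs. These are correlations across genes that share outer regions and base composition in part, given as a description.

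By the fold of the best-ranked peak, the narrowest centred ranges were those of Rpsa, Rpl37 and Rps13, at 0.25, 0.30 and 0.33. The order depended on the measure. With start-site regions summed they were 0.34, 0.56 and 0.27, and on library reads per 1000 bases 0.37, 0.38 and 0.64, where Rps3 was lowest at 0.34. Rpsa, the laminin receptor precursor of the small subunit, held 604, 304, 381, 353, 724, 771 and 328 reads in ATAC1 to ATAC7 in turn. Its log2 fold followed the library medians, from 2.43 in ATAC7 to 3.91 in ATAC6. Rpl37 stayed above the median of its library in all 7 and Rps13 below it.

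**Figure D4:**
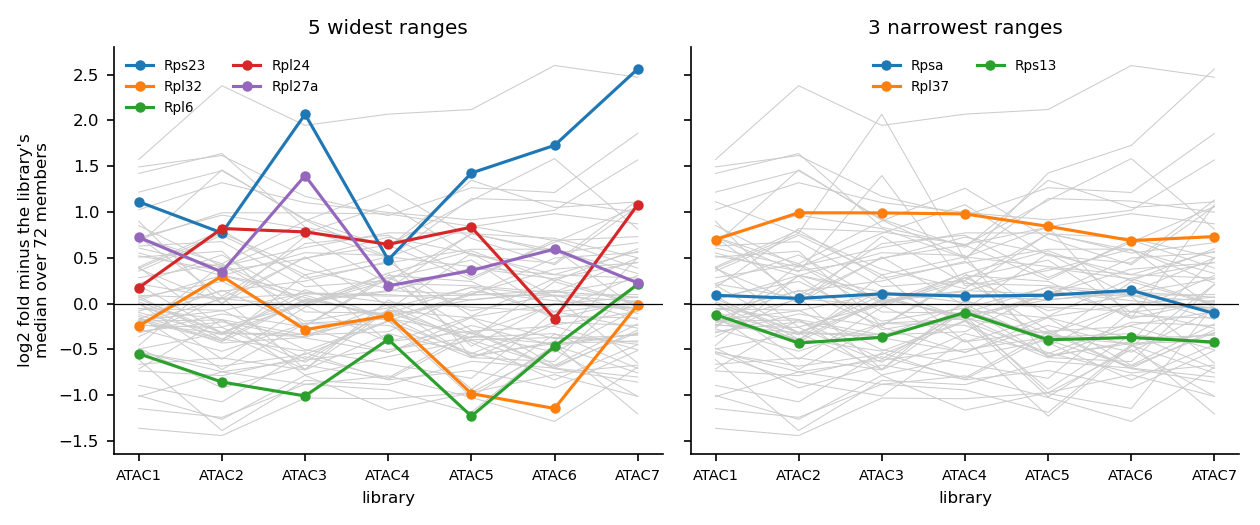
Log2 fold over Input of single promoters minus the median of the 72 members in the same library, for the 5 members with the widest range (left) and the 3 with the narrowest (right), with all 72 in grey. Lines only join values of 1 promoter, since libraries have no order. By this measure Rps23 ranges over 2.08 and Rpsa over 0.25.

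The widest range of fold, 2.08, belonged to Rps23. Its log2 fold was 4.43, 3.92, 4.74, 3.23, 5.18, 5.49 and 5.10 in ATAC1 to ATAC7 in turn. In ATAC3 and ATAC7 the value came from a peak centred 258 and 261 bases upstream of the start with 10 and 11 Input reads, and in ATAC2 and ATAC4 from a peak 92 and 49 bases downstream with 49 and 44 Input reads. All 4 of these libraries had 2 start-site peaks there, while the others had 1. With the reads of all start-site regions of a gene summed, its range was 0.86. On library reads per 1000 bases its range was 0.824, and the widest there was that of Rpl7 at 1.67.

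Rpl24 had a range of 1.24. The annotation gives it a further start 7461 bases downstream, and the best-ranked peak lay there in 5 libraries. With peaks at the representative start alone the range was 0.46. Rpl32 ranged over 1.44, Rpl6 over 1.44 and Rpl27a over 1.204, and their ranges of fold stayed at 1.07 or above under each of the 3 other ways of choosing peaks that were tried. On library reads per 1000 bases they were lower, at 0.807 for Rpl32, 0.694 for Rpl6 and 0.840 for Rpl27a, near the 0.65 that was the median of the members on that scale. Rpl6 had few reads, from 50 in ATAC4 (exact Poisson interval 37.1 to 65.9) to 236 in ATAC5 (206.8 to 268.1). Rpl27a had 776, 571, 483, 504, 904, 1170 and 333 reads in ATAC1 to ATAC7 in turn, and its centred fold was highest in ATAC3.

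Some members are often used as references or known for particular roles. Rplp0, a common reference gene for expression and part of the ribosomal stalk, had a median log2 fold of 2.76 and reads from 395 in ATAC2 to 876 in ATAC6. The other stalk proteins Rplp1 and Rplp2 had medians of 2.90 and 2.89. Their centred ranges were 0.56 for Rplp1 and 1.198 for Rplp2 by fold, and 0.564 and 0.636 on library reads per 1000 bases. Rps6, the substrate of S6 kinases, stood at 3.38, Rps3 at the entry of the messenger RNA at 2.99, and Rps14 at 3.03. Rpl5, which binds 5S ribosomal RNA together with Rpl11, stood at 3.51 against 2.14 for Rpl11. Rpl13a stood at 4.34, Rps19 at 4.04 and Rpl3 at 2.63.

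Among genes with paralogs, Rps27l had a median log2 fold of 1.87 in all 7 libraries, while its paralog Rps27 was called in 6 and had a median of 3.32 there. Rps27a, which encodes a fusion with ubiquitin and is not a paralog of either, had 3.96. Rpl36a and Rpl36al, which encode nearly the same protein, had 3.72 and 2.996. On library reads per 1000 bases their order was the other way, at 401 and 1032, with 52.4 and 170.0 Input reads. Rpl7a had 2.41. All of these but Rps27 had a peak in all 7 libraries. How reads that match more than 1 gene copy were aligned is not given in the sources used here.

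The peaks lay tightly around the start. The centre of the best peak was within 200 bases of an annotated start in 91.7% (ATAC7) to 95.8% (ATAC1, ATAC4 and ATAC5) of the 72 members, against 83.7% to 86.4% of the other promoters. The centre was a median of 12.5 to 23 bases upstream of the start, and in the others 25 to 36 bases. Peak coverage of the members was highest from 30 to 10 bases upstream of the representative start, where 63.7% lay inside a peak on average over the libraries. In the others it was highest 30 bases upstream, at 49.9%. At the start itself these shares were 61.1% and 46.5%. At 500 bases upstream they were 6.35% and 4.90%. Of the 504 best peaks, 36.9% were centred in an exon of the gene, 16.7% in an intron and 46.4% outside it.

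**Figure D5:**
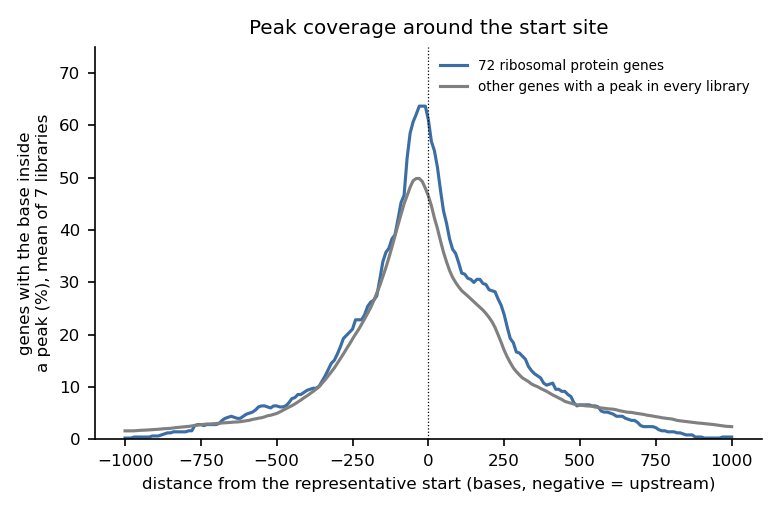
Share of genes with a given base inside a called peak, averaged over the 7 libraries, by distance from the representative start in bases (negative values are upstream). The 72 ribosomal protein genes reach 63.7% from 30 to 10 bases before the start, and the other genes with a peak in every library 49.9% at 30 bases before it.

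Small nucleolar RNA genes, which guide modification of ribosomal RNA, lay inside 30 of the 81 members (37.0%) and inside 1.202% of all protein-coding genes. The 30 members held 58 of the 1552 snoRNA genes of the annotation, and Rpl4 held the most with 5. A divergent coding gene started within 1000 bases of 12 members (14.8%), against 8.63% of all genes. Examples were Ndufa7 at 29 bases from Rps28, Rab13 at 44 bases from Rps27 and Lias at 54 bases from Rpl9, so a peak between such genes cannot be assigned to 1 of them. The best peak of 11 to 12 of the 72 members, depending on the library, also lay at the start of another coding gene.

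Related gene lists give the setting. Mitochondrial ribosomal protein genes, which build the separate ribosome of mitochondria, numbered 77. A peak in every library was found for 50 of them (64.9%), against 36.8% of all protein-coding genes. The mitochondrial count ran from 55 in ATAC7 (71.4%, all genes 42.0%) to 75 in ATAC6 (97.4%, all genes 51.5%). That of the cytoplasmic genes ran from 74 to 78. The median log2 fold of the members minus that of these 50 ranged from -0.10 in ATAC6 to 0.19 in ATAC4. Of 162 annotated ribosomal protein pseudogenes, between 0 and 2 (1.23%) had a start-site peak in a library, against 42.0% to 52.7% of protein-coding genes. The pseudogenes with a peak were Rpl21-ps1, Rpl21-ps8 and Rpl34-ps1.

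Ribosomal proteins outside the symbol rule, among them Fau, Gnb2l1, Rpl22l1 and Rpl7l1, had a peak in every library in 5 of 5 cases. The share over all protein-coding genes was 36.8%. Among 32 genes of translation initiation and elongation, 27 (84.4%) had a peak in every library. The exceptions were Eif4e, the cap-binding protein, with a peak in 4 libraries, and Eef1a1, Eif3c, Eif3g and Eif3l with a peak in 6. Of 19 genes of ribosome assembly, 17 (89.5%) had a peak in every library, and Pes1 and Tsr1 had one in 5. In ATAC1 the median log2 fold was 3.55 for the initiation and elongation genes and 2.98 for the assembly genes, on both sides of the 3.32 of the ribosomal protein genes.

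The labelled cell type was checked with start-site peaks of marker genes. Of 12 stromal markers, 4 in ATAC3 and ATAC4 (33.3%) to 9 in ATAC5 (75%) had a peak, against the 42.0% to 52.7% of all genes above. Fn1 and Ebf3 had one in all 7 libraries, Col1a1 and Twist1 in 6, and Pdgfra and Pdgfrb in 5. Pdgfra had none in ATAC1 and ATAC3. Col1a2 had one in 4 libraries, Cxcl12 in 2, Twist2 in 1, and Lepr, Prrx1 and Col3a1 in none. Of 11 haematopoietic markers found, 2 to 4 had a peak. Runx1 had one in all 7 libraries and Ptprc, which marks leukocytes, in 4, while Cd3e, Elane, Lyz2, Mpo and Gata1 had none. Of 6 endothelial markers, Kdr and Pecam1 had a peak in ATAC5 and none was called elsewhere. The study's sort kept cells positive for PDGFR-α (Pdgfra) and negative for lineage markers, among them CD31 (Pecam1) and CD45 (Ptprc). The part of other cells in the values of the ribosomal protein promoters, which are active in all of these cell types, was not tested.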

How the data were processed

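Peak lists of 7 ATAC-seq libraries were analysed, and the Input library entered through its reads in those lists. The authors aligned reads to mm9 with bowtie and called peaks per library with CisGenome against Input at their p-value and FDR limits. Versions, a shift of reads for the transposase and removal of duplicates are not given in the sources used here. Without such a shift, edges of peaks would be a few bases off. No header comes with the deposited tables, so the meaning of a column was worked out from its values. For the outer region of each peak, the authors deposited read counts of library and Input, and a ratio (the fold over Input). Peaks are ordered by a signal the authors computed.

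A start-site peak had its centre within 1000 bases of a start of any transcript of the gene in GENCODE vM1, whose genome (NCBIM37) is mm9, and 0 peaks extended beyond a chromosome. The best-ranked such peak stood for a gene. Counts were divided by the width of the outer region. Library depth is unknown, since only reads in peaks are listed: the members' best peaks held a median of 214.5 (ATAC7) to 566.5 (ATAC6) reads. Poisson intervals are exact at 95% and cover counting error only, since duplicates are not independent molecules. Medians were described with exact binomial intervals. No test across genes was made. The members and the gene lists were chosen with earlier results of these data known. Named were members without a peak in some library, the 5 highest and 5 lowest by median log2 fold, the 5 widest and 3 narrowest ranges, 12 known genes and paralogs. Rpl7, Rpl36al, Rpl37 and others named as leading a list beyond these groups were picked after their values were seen, as were the divergent genes. The number of columns without a sample was 0. Assignment was tested on simulated data. Alternatives were other distances, starts, thresholds, list lengths and choices of peak. Sequences were read with pysam 0.24.0 and samtools 1.23.1 in Python 3.11.15 with pandas 2.3.3, numpy 2.4.6, scipy 1.17.1 and matplotlib 3.10.9. The separate coordinate lists were not used. Single values of some genes and markers are not reported here.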

Additional observations from a re-analysis of the deposited data

How the results depend on the processing

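All 49 recounts of members per library and all 14 recounts over libraries stayed within 1.5 times the reported count. Per library they ran from 53 to 78 members, with the lowest at a fold of at least 5. Without 1 library in turn, 72 to 74 members had a peak in every remaining library. The 56 recomputed medians of log2 fold and the 35 of reads per 1000 bases lay inside the interval of the reported median. Of 63 recomputed differences between members and other promoters, 2 left it: with all genes that have a peak in the library, ATAC5 gave 0.13 and ATAC6 0.19, since this setting adds weaker promoters to the others. Such differences changed sign in some settings and ran from -0.21 to 0.21. The median range over libraries was 0.65 to 0.71 under other centring or reads per 1000 bases. Restricting genes to 1 start, or to autosomes, and the settings for single promoters were chosen after seeing the data. The widest range of fold, of Rps23, was 0.86 with summed regions, and that of Rpl24 was 0.46 at the representative start. No paired analysis was possible because there is a single library for every title. Depth limits what a missing peak means: it says that no region was called, not that reads were absent.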
